A study of Danio rerio with 6 samples.

Results

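The genes of cadherins and protocadherins, a family of cell surface adhesion proteins, were measured in caudal fins of swim-trained and control zebrafish larvae. They were chosen by name, as every gene on the array whose current symbol starts with cdh or pcdh, without the cdhr genes. The array held 46 of them on 84 probes. A gene was kept when a probe lay well above background on all 6 arrays in the trained or in the control channel, and was read by its brightest kept probe. That left 33 genes of 15783 tested, namely 21 clustered protocadherins, 5 other protocadherins, 3 type I and 4 type II classical cadherins.

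The study compared trained with control wildtype zebrafish, both sampled at 10 days post fertilisation. Trained larvae swam from day 5 to day 10 in daily sessions of 3 h. The trained pools T2 and T3 and the control pools C2 and C3 each held the caudal fins of 15 larvae, and 100 ng of RNA was labelled per sample. T2 was hybridised against C2 (pool pair 2) on 4 arrays and T3 against C3 (pool pair 3) on 2 arrays, with dyes swapped. Arrays of a pair share their RNA, so the pool pair is the replicate, and the number of pools limits the precision. Every ratio is given as log2 of the trained over the control signal, and every level is a normalised log2 intensity of a pool. Levels were put on one scale across arrays, but only pools of the same number met on one array.

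Classical cadherins join cells of the same kind in a calcium-dependent way, and their tails bind catenins, which link the junction to actin. Clustered protocadherins are encoded in tandem arrays in which a variable exon is joined to constant exons shared by a subcluster, so that different cells carry different sets of these proteins. They are best known from neurons, where they help a cell tell its own branches from those of others. The remaining, non-clustered protocadherins act in cell sorting and movement, several of them through the WAVE complex of actin regulators.

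Across the series, 54.4% to 81.2% of probes lay well above background per channel and array. Ratios spread more widely over all genes in pool pair 3 (SD 0.53) than in pool pair 2 (SD 0.15), around medians of 0.05 and 0.02. All 12 caudal fin markers on the array, among them and1, and2 and hoxa13b, were measured, with median ratios of 0.11 in pool pair 3 and 0.02 in pool pair 2. Arrays centred on their median in place of loess moved the median of all genes in pool pair 3 to -0.07 and that of the fin markers to -0.32. By limma on the 2 pair values, 0 of 15783 genes (0%) passed a Benjamini-Hochberg adjusted p of 0.05, and the lowest adjusted p was 0.753. None of the 33 cadherin and protocadherin genes passed. At an unadjusted p under 0.05 none of the 33 was higher and none lower, beside 2.15% of all genes higher and 1.81% lower. With 2 pairs an exact sign-flip test cannot go below a two-sided p of 0.5. In RNA from whole fins, fewer cells of a type and less RNA per cell cannot be told apart.

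Clustered protocadherins were higher in trained than in control fins in pool pair 3 and near 0 in pool pair 2. In pool pair 3 all 21 had a ratio above 0, where 55.3% of all genes did, with a median of 0.73 and a range of 0.25 to 2.02. In pool pair 2, 7 of the 21 lay above 0, where 56.6% of all genes did, with a median of -0.02 and a range of -0.19 to 0.18. At least 1.5-fold higher in the trained pool of pair 3 were 11 of the 21, beside 13.2% of all genes, and 7 were at least 2-fold higher, beside 5.08%. In pool pair 2 none was at least 1.5-fold higher, beside 0.317% of all genes. Both pairs lay above 0 for 7 of the 21, beside 36.6% of all genes, and all 6 arrays lay above 0 for 2 of them, beside 11.8%. The mean over both pairs had a median of 0.34 over the class. The arrays lay on 2 slides, and the pair 3 median was 0.69 within slide 1 and 0.76 within slide 2, with all 21 above 0 on each. Each slide held a single array of pool pair 3, with the trained pool in Cy5 on slide 1 and in Cy3 on slide 2. Slide and dye cannot be told apart there, and both arrays carry the same RNA.

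**Figure D1:**
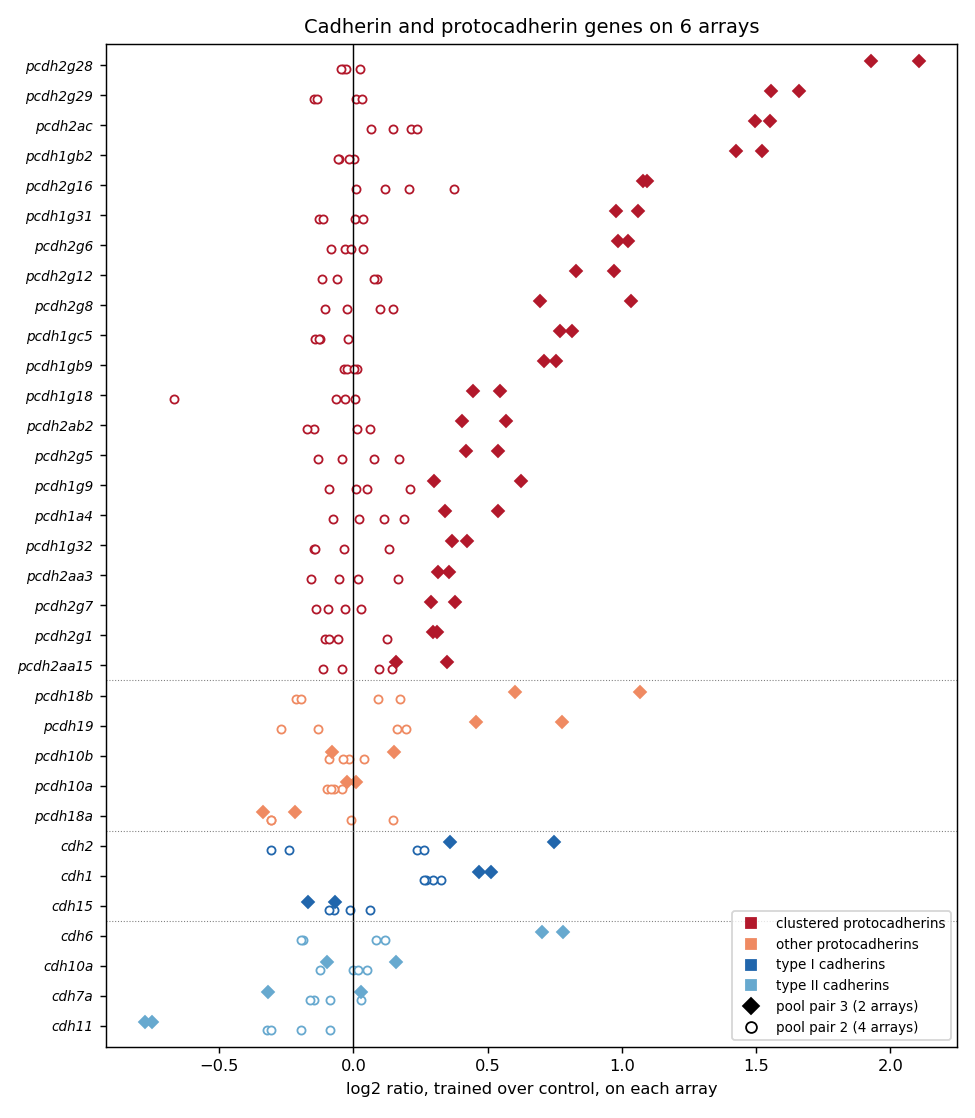
Log2 ratio of trained over control (horizontal axis) on each of the 6 arrays for the 33 kept genes, with 1 row per gene and 1 point per array. Filled diamonds are the 2 arrays of pool pair 3 and open circles the 4 arrays of pool pair 2. The diamonds of all 21 clustered protocadherins lie to the right of 0, and their circles lie around 0.

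Not all 21 were measured equally well. For pcdh1g32, pcdh1gb9, pcdh2aa3, pcdh2g1 and pcdh2g16 the filter was passed only through the trained channel, so they were counted only because the trained channel was bright enough. They were well above background in C2 on 4 of 4 arrays, but in C3 on 1 of 2 arrays for pcdh1g32 and pcdh2aa3 and on 0 of 2 for the other 3. In pool pair 3 the ratios of those 3 set T3 against a C3 reading at background, so their size is uncertain. The same holds for the class median, which is the value of pcdh1gb9. Among the 16 that passed in both channels, 16 lay above 0 in pool pair 3 with a median of 0.83, and 9 were at least 1.5-fold higher, beside 14.4% of all genes that passed in both. The 4 clustered protocadherins that were not kept, pcdh1g1, pcdh1g11, pcdh1g2 and pcdh2aa1, were well above background on 0 to 4 arrays in the trained channel and on 1 to 5 in the control channel. Their pair 3 ratios were -0.04 for pcdh1g1, -0.05 for pcdh1g11, -0.02 for pcdh1g2 and 0.12 for pcdh2aa1, at intensities where a ratio is compressed. Without the filter, 22 of the 25 clustered protocadherins on the array lay above 0 in pool pair 3.

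The size of these ratios depended on the background correction. The offset of 50 that was added to each signal pulls ratios of dim probes towards 0. With the processed signals of the scanner software, which carry no offset, the clustered protocadherins had a median of 1.62 in pool pair 3 with a range of 0.61 to 3.59, and of -0.0017 in pool pair 2. Among these are the 5 that passed the filter only through the trained channel. The 3.59 is that of pcdh2g16, which was not well above background in C3. With the processed signals all 21 were at least 1.5-fold higher in pool pair 3, where 27.7% of all genes were. With local backgrounds as deposited 4 of the 21 reached that size, so the class median lay below 1.5-fold there. The ratios given here for genes at background in C3 therefore hold for the main background correction only. In each of these settings, and with median centring, all 21 lay above 0 in pool pair 3.

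By pool, the contrast came with a low level in C3. The median level over the 21 genes was 7.37 in T2 and 7.27 in T3, against 7.56 in C2 and 6.60 in C3. C3 was the lowest of the 4 pools for 21 of 21 genes, beside 41.1% of all genes. It was also lowest for all 16 that passed the filter in both channels, beside 5543 of the 13974 genes that did. Both counts in part restate the pair 3 ratios, since C3 can be lowest only where that ratio is above 0. Among the 8734 genes above 0 in pool pair 3, C3 was lowest for 6479. Over all probes, 54.4% and 63.7% were well above background in T3 on its 2 arrays, against 55.7% and 58.3% in C3. For the clustered genes C3 lay a median of 0.60 below the next lowest pool, while the other 3 pools spanned a median of 0.22. These values include the 5 genes kept only through the trained channel. Both trained pools lay above both control pools for 3 of the 21 (pcdh1g9, pcdh2ac and pcdh2g16), beside 22.7% of all genes.

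**Figure D2:**
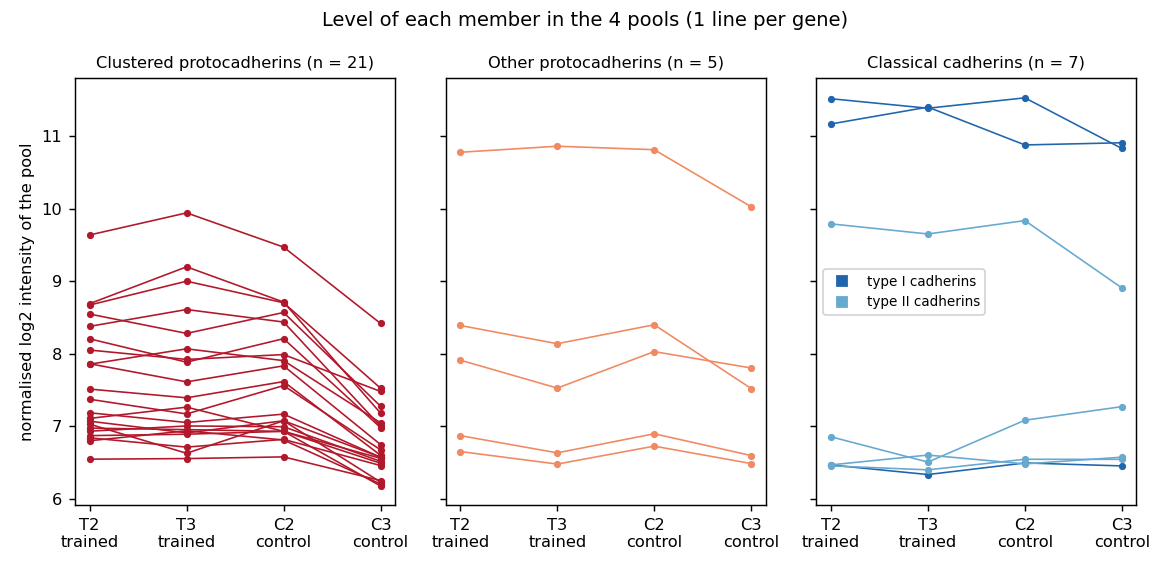
Normalised log2 intensity (vertical axis) of each kept gene in the trained pools T2 and T3 and the control pools C2 and C3, with 1 line per gene and a panel per class. The line of every clustered protocadherin ends at its lowest point in C3, while the type II cadherin cdh11 has its highest level there.

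Markers of neurons and glia were read alongside, since clustered protocadherins are best known from neurons. The list of neurons and glia had 13 measured genes and 1, sypa, that was not well above background. In pool pair 3, 7 of the 13 lay above 0, beside 55.3% of all genes, with a median of 0.06. In pool pair 2, 4 did, beside 56.6% of all genes, with a median of -0.05. The 7 above 0 in pool pair 3 ran from 0.06 for mpz to 0.57 for elavl4. The 6 below 0 there ran from -0.12 for stmn2a to -0.73 for the glial gene gfap. The summed intensity of the 13 was 6554 in T2 and 4405 in T3, against 6794 in C2 and 4985 in C3. Gfap, the brightest of them, weighs most in these sums, at levels of 10.23 in T3 and 10.97 in C3. Among the other marker lists, 5 notochord genes had medians of -0.13 in pool pair 2 and 0.57 in pool pair 3, 11 muscle genes had 0.13 and -0.26, and 4 hair cell genes had -0.12 and -0.04. The 3 measured endothelial genes had -0.20 and -0.37, and kdr and kdrl were not well above background. Above 0 in pool pair 3 lay 3 of the 5 notochord and 4 of the 11 muscle genes, beside 55.3% of all genes. That count was 2 of 4 for hair cells and 0 of 3 for endothelium. With median centring the pair 3 medians were -0.07 for neurons and glia, 0.16 for notochord, -0.62 for muscle, -0.25 for hair cells and -0.58 for endothelium. The part of these cell types in the protocadherin result was not tested.

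The genes lie in clusters 1 and 2, with 8 and 13 of the 21. The 9 gamma genes of cluster 2 had a pair 3 median of 0.90, the 7 gamma genes of cluster 1 had 0.73, the 4 alpha genes of cluster 2 had 0.41 and the single alpha gene of cluster 1, pcdh1a4, had 0.44. The 0.73 is the value of pcdh1gb9, which passed the filter only through the trained channel. The same filter limit applies to pcdh1g32 of cluster 1, to pcdh2aa3, and to the cluster 2 gamma genes pcdh2g1 and pcdh2g16. Only pcdh1a4 has an annotated span that overlaps no other kept clustered gene. The other 20 share their span with 3 to 8 kept genes, so a probe in a shared exon would read several of them at once. Where the probes lie within these genes is not used here. Whether the 21 values are separate measurements was not tested, and they are not counted as such.

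Pcdh2ac, an alpha gene of cluster 2, had levels of 9.64 in T2 and 9.94 in T3, against 9.47 in C2 and 8.42 in C3. Both trained pools lay above both control pools. Its ratio was 0.17 in pool pair 2 and 1.52 in pool pair 3, above 0 on all 6 arrays, with a mean of 0.85 ± 0.34 (moderated SE from limma, adjusted p = 0.753). That rests on the brightest of 7 kept probes, since the other 6 lay between -0.10 and -0.0036 in pool pair 2, and with the probes averaged the mean was 0.24. The gamma gene pcdh2g16 of the same cluster had levels of 7.11 in T2 and 7.27 in T3, against 6.93 in C2 and 6.18 in C3, where it was not well above background. Its ratio was 0.18 in pool pair 2. In pool pair 3 it read 2.12-fold higher in T3 under the main background correction, a size that is uncertain because C3 lay at background. The mean over both pairs was 0.63 (adjusted p = 0.753 by limma), and 0.34 with local backgrounds as deposited. It lay above 0 on all 6 arrays and has 1 kept probe. Read by their brightest probes, pcdh2ac and pcdh2g16 were the 2 clustered genes with one direction on every array.

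The gamma gene pcdh2g28 had levels of 8.69 in T2 and 9.20 in T3, against 8.71 in C2 and 7.18 in C3. T2 and C2 were level, and C3 stood alone below the others. Its ratio was -0.02 in pool pair 2 and 2.02 in pool pair 3, which is 4.05-fold. With processed signals its pair 3 ratio was 2.96. That of pcdh2g16 was 3.59, but with C3 not well above background, so these values are not ranked. The cluster 1 gamma gene pcdh1gb2 showed the same order, with 8.67 in T2 and 9.001 in T3, against 8.70 in C2 and 7.53 in C3. Its ratio was -0.03 in pool pair 2 and 1.47 in pool pair 3. Over both pairs the means were 0.997 ± 0.48 for pcdh2g28 and 0.72 ± 0.37 for pcdh1gb2 (adjusted p = 0.753 for each by limma), and with probes averaged they were 0.22 and 0.54. Of the other clustered genes, pcdh2g29, pcdh1g31 and pcdh2g6 were at least 2-fold higher in T3 than in C3, with ratios of 1.61, 1.02 and 1.004, and -0.06, -0.05 and -0.02 in pool pair 2. The pair 3 ratio of pcdh2aa15 was 0.25, and 0.87 with processed signals. Pcdh2g1 read 1.23-fold higher in T3 than in C3 under the main background correction, a size that is uncertain because C3 lay at background.

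Probes of the same gene did not always give the same ratio. Over the class, 33 of 36 kept probes lay above 0 in pool pair 3, beside 12483 of all 24111 kept probes. Their median was 0.46, below the 0.73 of the brightest probes. Some of the 36, among them all 3 of pcdh2aa3, passed the filter only through the trained channel, which favours ratios above 0. With the probes of each gene averaged, all 21 genes lay above 0 there with a median of 0.50, and 8 were at least 1.5-fold higher. The 4 probes of pcdh2g28 ran from -0.09 to 2.02 in pool pair 3, and 2 of them lay above 0. The 7 probes of pcdh2ac ran from -0.0024 to 1.52, and the 3 of pcdh1gb2 from 0.36 to 1.59. With the processed signals, the probes of pcdh2g28 ran from -0.40 to 2.96, and the 3 of pcdh1gb2 lay between 1.99 and 2.39. The cause of the spread between probes was not tested. The median spread between probes was 0.99 for the 6 clustered genes with several kept probes and 0.40 for all 5560 such genes on the array, both in pool pair 3. Probes of both signs were found for 2 of the 6, and for 2187 of the 5560.

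**Figure D3:**
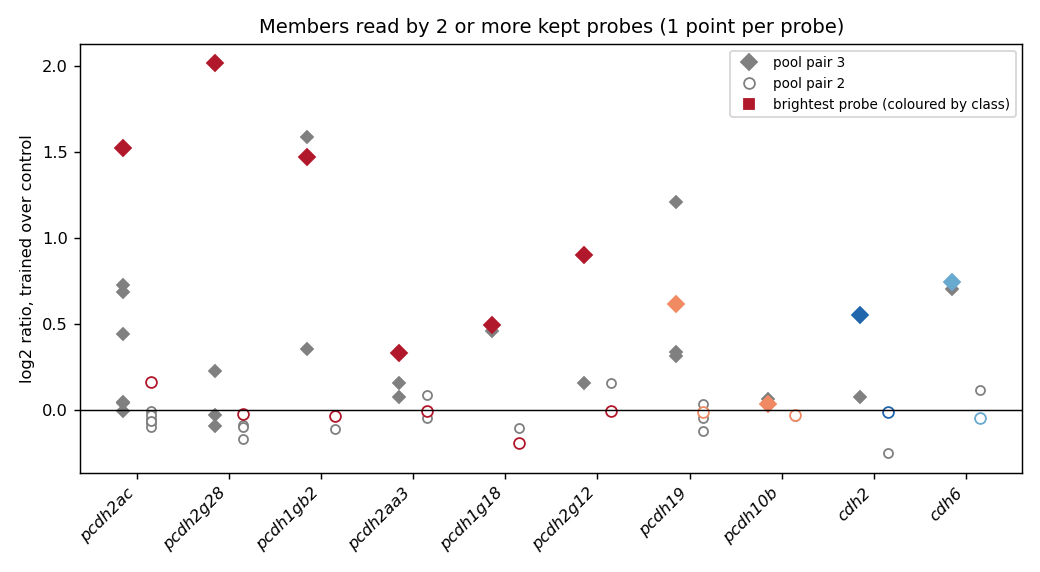
Log2 ratio of trained over control (vertical axis) of every kept probe for the 10 kept genes with more than 1, with filled diamonds for pool pair 3 and open circles for pool pair 2. Coloured symbols are the brightest probe, which stands for the gene elsewhere. For pcdh2ac and pcdh2g28 the brightest probe has the highest pair 3 ratio of the gene, at 1.52 and 2.02. The same holds for pcdh1g18, pcdh2aa3, pcdh2g12, cdh2 and cdh6, but not for pcdh1gb2, pcdh10b and pcdh19.

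The other protocadherins were mixed. Of the 5, 3 lay above 0 in pool pair 3, beside 55.3% of all genes, with a median of 0.04. At least 1.5-fold higher there were 2, beside 13.2% of all genes. In pool pair 2 none lay above 0, beside 56.6% of all genes, with a median of -0.04. Over the kept probes of these 5, 8 of 10 lay above 0 in pool pair 3 with a median of 0.33. For the clustered genes the values were 33 of 36 and 0.46. Pcdh19 alone holds 5 of these 10 probes, and some of those passed the filter only through the trained channel, as did some clustered probes. Of all 24111 kept probes, 12483 lay above 0 in pool pair 3. Pcdh18b, a delta-type protocadherin gene, had levels of 10.78 in T2 and 10.86 in T3, against 10.81 in C2 and 10.03 in C3. C3 was again the low pool. The ratio of pcdh18b was -0.04 in pool pair 2 and 0.83 in pool pair 3, with a mean of 0.40 ± 0.25. Its pair 2 arrays read -0.21 and -0.19 with the trained pool in Cy5, and 0.09 and 0.17 in Cy3. Its paralogue pcdh18a had levels of 7.91 in T2 and 7.53 in T3, against 8.03 in C2 and 7.80 in C3, with overlapping groups. The ratio of pcdh18a was -0.12 in pool pair 2 and -0.28 in pool pair 3, so the paralogues had opposite signs in pool pair 3. The pair 2 arrays of pcdh18a each read -0.31 with the trained pool in Cy5, and -0.01 and 0.15 in Cy3.

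Pcdh19, whose human counterpart is mutated in an epilepsy of girls and whose protein binds N-cadherin, had levels of 8.39 in T2 and 8.14 in T3, against 8.40 in C2 and 7.52 in C3. The ratio was -0.01 in pool pair 2 and 0.62 in pool pair 3, and the 5 probes ran from 0.32 to 1.21 there, all above 0. By the brightest probe, the pair 2 arrays read -0.13 and -0.27 with the trained pool in Cy5, and 0.20 and 0.16 in Cy3. The paralogues pcdh10a and pcdh10b, also of the delta type, stayed within 0.10 of 0 in both pairs, at -0.07 and -0.03 in pool pair 2 and at -0.01 and 0.04 in pool pair 3. The adjusted p of these 5 genes by limma ran from 0.753 to 0.995. The 3 further non-clustered genes were not kept. They were pcdh8, the paraxial protocadherin gene, and the tip link genes pcdh15a and pcdh15b of hair cells, well above background on 0 or 1 array.

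The 7 classical cadherins went in both directions. Above 0 in pool pair 3 lay 4 of 7, beside 55.3% of all genes, with a median of 0.03. In pool pair 2, 1 did, beside 56.6% of all genes, with a median of -0.03. Cdh1, the E-cadherin gene of epithelia, had levels of 11.17 in T2 and 11.40 in T3, against 10.88 in C2 and 10.91 in C3. Both trained pools lay above both control pools. The ratio was 0.29 in pool pair 2 and 0.49 in pool pair 3, above 0 on all 6 arrays with a range of 0.26 to 0.51, and the mean was 0.39 ± 0.17 (adjusted p = 0.753 by limma). It was the only one of the 33 genes to pass in any alternative, at an adjusted p of 0.0287 by limma with the 6 arrays counted as independent, which takes hybridisations for replicates. With median centring in place of loess its ratio was 0.34 in pool pair 2 and 0.06 in pool pair 3.

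Epidermal markers were read beside cdh1. All 9 measured lay above 0 in pool pair 2, beside 56.6% of all genes, with a median of 0.17. In pool pair 3, 6 of the 9 markers did, beside 55.3%, with a median of 0.50, which median centring brought to 0.04. Their summed intensity was 250084 in T2 and 293542 in T3, against 215339 in C2 and 188099 in C3, and none of the markers on the array lay at background. The 3 below 0 in pool pair 3 were cyt1, a keratin gene, at -0.88, tp63 at -0.23 and cldni at -0.02. The part of the epidermal share in the cdh1 ratio was not tested.

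Cdh2, the N-cadherin gene of neural and mesenchymal cells, had levels of 11.52 in T2 and 11.38 in T3, against 11.53 in C2 and 10.83 in C3. Its ratio was -0.01 in pool pair 2 and 0.55 in pool pair 3. Within pool pair 2 it followed the dye, at -0.24 and -0.31 with the trained pool in Cy5 and at 0.24 and 0.26 with the trained pool in Cy3, which cancel in the pair value. Several other members split by dye there too, such as pcdh18b and pcdh19 in this direction and cdh6 and pcdh2aa15 in the opposite one. The other probe of cdh2 read 0.08 in pool pair 3, and with median centring the pair 3 ratio of cdh2 was 0.12. With probes averaged its mean was 0.093, against 0.27 for the brightest probe. Cdh15, the M-cadherin gene of muscle precursors, had ratios of -0.03 and -0.12 in pool pairs 2 and 3, and was well above background in T3 on 1 of 2 arrays. It was the 1 gene of the 33 that passed through the control channel only. With processed signals the ratios of cdh15 were -0.05 and -0.71 in pool pairs 2 and 3.

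Cdh11, the type II cadherin gene of mesenchyme and bone-forming cells, lay lower in trained fins in both pairs. Its levels were 6.86 in T2 and 6.51 in T3, against 7.08 in C2 and 7.27 in C3. Both trained pools lay below both control pools. The ratio was -0.23 in pool pair 2 and -0.76 in pool pair 3, with a mean of -0.50 ± 0.20 (adjusted p = 0.753 by limma). It was the 1 gene of the 33 below 0 on all 6 arrays, where 8.37% of all genes were. With processed signals its pair 3 ratio was -2.13, while with local backgrounds as deposited its mean was -0.29, nearer to 0. Cdh11 has 1 kept probe, and its T3 level of 6.51 is low, where the offset compresses ratios. Both pairs lay below 0 for 5 of the 33, beside 24.7% of all genes, and both trained pools lay below both control pools for cdh11 and cdh7a, beside 13.9% of all genes. The 6 measured genes of mesenchyme and bone had medians of 0.08 in pool pair 2 and 0.12 in pool pair 3 (-0.32 with median centring). In pool pair 3 they split, with sp7 at 0.91, bglap at 0.88 and col1a2 at 0.54, but col1a1a at -0.71, prrx1a at -0.38 and twist1a at -0.31. Their summed intensities were 69088 in T2 and 63783 in T3, against 56908 in C2 and 58806 in C3.

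Cdh6, a type II gene of kidney and neural crest, had levels of 9.79 in T2 and 9.65 in T3, against 9.84 in C2 and 8.91 in C3. C3 lay alone below the other pools, and the ratio was -0.05 in pool pair 2 and 0.74 in pool pair 3, with both probes close, at 0.71 and 0.74. Cdh7a and cdh10a, cadherin genes of the nervous system, had ratios of -0.09 and -0.01 in pool pair 2 and of -0.14 and 0.03 in pool pair 3. Levels of both were low, between 6.40 and 6.60, where the offset compresses ratios. With processed signals cdh7a had -0.40 and -0.57 in pool pairs 2 and 3, and cdh10a had -0.16 and -0.24. The R-cadherin gene cdh4, the endothelial cadherin gene cdh5, cdh12a and cdh18a were not kept, and neither were cdh17 nor the tip link gene cdh23, each above background on 0 or 1 array. By limma the adjusted p of cdh2, cdh6, cdh7a, cdh10a and cdh15 ran from 0.761 to 0.992.

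**Figure D4:**
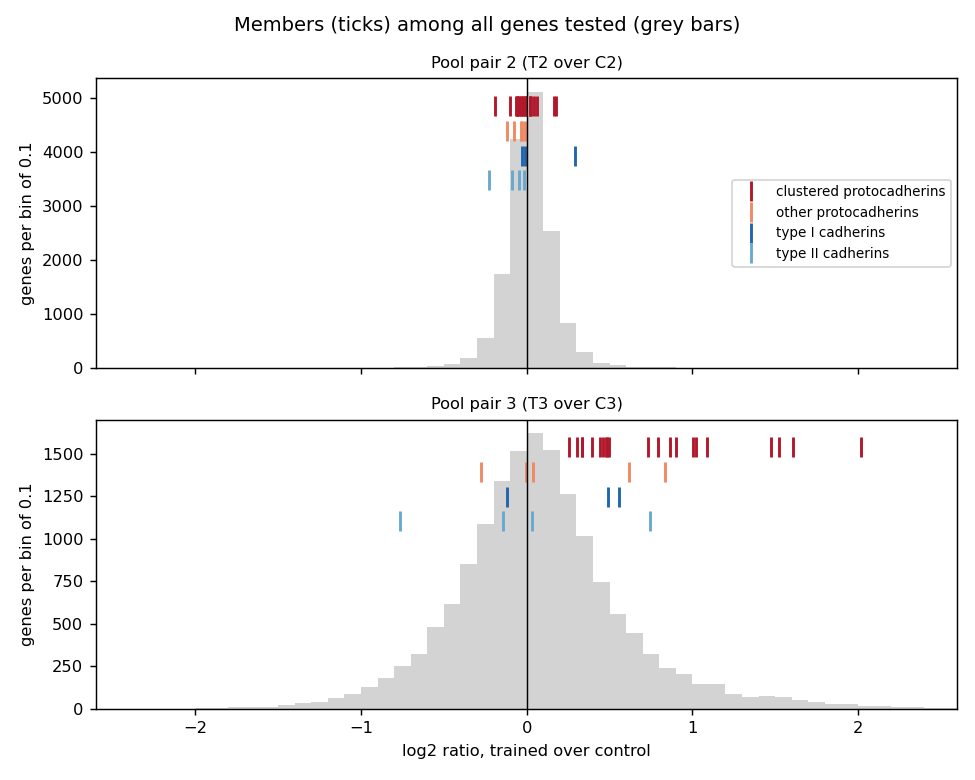
Number of genes per bin of 0.1 (vertical axis) by log2 ratio of trained over control (horizontal axis) for all 15783 genes tested, as grey bars, in pool pair 2 above and pool pair 3 below. Coloured ticks mark the 33 genes by class. In pool pair 3 the ticks of the clustered protocadherins run from 0.25 to 2.02, while those of the other classes lie on both sides of 0.

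The catenins that bind classical cadherins were read in 6 of the 10 genes listed, and none passed the test. In pool pair 3, 5 of 6 lay above 0, beside 55.3% of all genes, with a median of 0.40. In pool pair 2, 3 did, beside 56.6% of all genes, with a median of 0.07. With median centring the pair 3 median was 0.10, with 4 of 6 above 0. Ctnnb1, the beta-catenin gene, had levels of 12.81 in T2 and 13.05 in T3, against 12.63 in C2 and 11.94 in C3. Both trained pools lay above both control pools, with ratios of 0.18 and 1.11 in pool pairs 2 and 3 and a mean of 0.64 ± 0.26 for its brightest probe, but of 0.066 with its probes averaged. Jupa, a plakoglobin gene, had ratios of 0.25 and 0.55 and a mean of 0.13 with probes averaged, and the neuronal alpha-catenin gene ctnna2 had -0.16 and 0.95. The epithelial alpha-catenin gene ctnna1 was the 1 catenin gene below 0 in both pairs, at -0.19 and -0.17.

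Among 36 listed genes of junction anchoring, nectins and signalling at the junction, 22 were on the array and 19 were measured. Of these, 16 of 19 lay above 0 in pool pair 3 with a median of 0.30, beside the 55.3% of all genes. In pool pair 2, 11 did with a median of 0.01, beside 56.6% of all genes. With median centring 12 of 19 lay above 0 in pool pair 3, with a median of 0.26. None passed the test. The kinase gene ptk2bb, whose mammalian counterpart PYK2 binds clustered protocadherins, had levels of 9.90 in T2 and 10.48 in T3, against 9.90 in C2 and 8.93 in C3. Its ratio was -0.0016 in pool pair 2 and 1.55 in pool pair 3. Rap1b, a small GTPase gene of junction assembly, had ratios of 0.17 and 0.97 in pool pairs 2 and 3, and its mean was 0.57 for the brightest probe but 0.092 with probes averaged. Ctnnbip1, which encodes an inhibitor of beta-catenin, had -0.15 and -1.26, and its mean was -0.70 for the brightest probe and -0.44 with probes averaged. Ctcf, which encodes the factor that shapes promoter choice in mammalian protocadherin clusters, had -0.02 and 0.68, and was singled out after its values were seen.

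Of the giant cadherins 3 of 12 listed genes were on the array, and fat3a was the only one measured, with celsr2 and fat1a not well above background. Fat3a had levels of 7.86 in T2 and 7.94 in T3, against 7.78 in C2 and 6.82 in C3, with ratios of 0.08 and 1.12 in pool pairs 2 and 3. Both trained pools lay above both control pools, with C3 lowest. With its probes averaged the mean ratio of fat3a was 0.35, against 0.60 for the brightest probe. Among the repressors of E-cadherin, 5 of 9 listed genes were measured. All 5 lay below 0 in pool pair 2 and 3 of 5 in pool pair 3, with medians of -0.08 and -0.24. Of all genes, 56.6% lay above 0 in pool pair 2 and 55.3% in pool pair 3. With median centring 2 of the 5 lay above 0 in pool pair 2, and the medians were -0.02 and -0.44. Snai2 had levels of 8.25 in T2 and 7.65 in T3, against 8.34 in C2 and 8.45 in C3, with a mean ratio of -0.45 ± 0.23 for its brightest probe and of -0.13 with probes averaged. The ratios of twist1a were -0.08 and -0.31, and those of zeb2a -0.02 and 0.79. The adjusted p of the partner genes named from ctnnb1 to zeb2a by limma ran from 0.753 to 0.798.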

How the data were processed

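RNA of pooled caudal fins was measured on 6 two-colour Agilent arrays, as 2 pool pairs of trained and control larvae. Scans were read with Agilent Feature Extraction 10.5.1.1, per the submitters' processing notes. In the deposited scanner files each spot has a median intensity and a local background intensity per channel, a processed intensity and a log10 Cy5 to Cy3 ratio. The series value table, as the authors deposited it, repeats that log10 ratio and served as an alternative.

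The analysis used R 4.3.3 with limma 3.58.1 and data.table (version 1.17.8). Local backgrounds over 10 median absolute deviations from an array's median were set to that median. Background was removed by normexp with offset 50 and arrays were normalised by loess, with control and flagged spots at weight 0. Ratios were turned to trained over control by the dyes in the labels, averaged per dye orientation and then per pool pair, and the pair values were tested with limma, adjusted over 15783 genes. The test left 1 residual degree of freedom per gene beside a prior of 4.12. The code was tested on simulated data. Pool levels come from the separate channels after loess and Aquantile scaling.

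The files name probes by accession. Of 43603 probes, 25173 matched the RefSeq table of assembly GRCz12tu, which was used for symbols and for which genes overlap. Each accession without a match was counted as a gene. Of the 15783 genes tested, 9247 have a symbol, and the shares of all genes cover both kinds. The labels give pools of a pair the same number without saying that it marks a shared clutch or day. The ratio on an array pairs these pools by construction. The p-values therefore rest on the spread between the 2 pair ratios, moderated over all genes, and not on the spread between single pools. Members and gene lists were chosen with earlier results of these data known. Full values are given for up to 4 kept genes of each class with the smallest unadjusted p, for the gene of each class whose pairs differ most, for 12 cadherin and protocadherin genes set by name where kept, and for up to 3 genes of each partner list. Alternatives covered background, offset, normalisation, filter, flagged spots, choice of probe, technical repeats, blocks, slides and pairing.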

Additional observations from a re-analysis of the deposited data

Results flagged for a closer look

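One of the 33 genes had an array far from the others of its pool pair. On the repeat array of pool pair 2 with the trained pool in Cy3, the clustered protocadherin gene pcdh1g18 had a log2 ratio of -0.67, while the other 3 arrays of that pair lay between -0.06 and 0.0050. Chance marks about 1 in 20 groups of arrays in this way. Its pair 2 value of -0.19, the lowest of the clustered protocadherins, includes that array, and its pair 3 ratio of 0.49 does not.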

How the results depend on the processing

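Only some of the 20 alternatives could change the pair 3 values of the clustered protocadherins kept in the report. Where background, offset, centring, flagged spots, choice of probe or slide was changed, the values were computed anew and all stayed above 0. Aquantile scaling, technical repeats left out, other blocks or priors, unpaired pools and leaving out the other pair left these values as they were. Leaving out pool pair 3 gave no such value, and the filter alternatives changed which genes were counted. Without the replicate block, with the 4 pools unpaired, 0 genes and 0 of the 33 passed, as with pairing. Over all genes 404 passed with 6 arrays as independent, which also called 1 of the 33 (cdh1), 60 with the slide as a block, 9 with the pair taken as a random block and 6 with an intensity trend and robust prior.

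At least 1.5-fold higher in pool pair 3 were 4 clustered protocadherins with local backgrounds as deposited, 19 with offset 10 and 21 with processed signals or the deposited value table, where their pair 3 median was 1.62. Median centring put 11 of them above 0 in pool pair 2. The classical cadherins' pair 3 median was -0.24 with processed signals or the deposited table, 0.26 with the filter in both channels and 0.16 within slide 2. Their median over both pairs was -0.20, -0.20 and 0.14 under the first 3 of these, -0.062 within slide 1 and 0.096 within slide 2. The other protocadherins' pair 3 median was 0.15 with processed signals, the deposited table or within slide 1 and -0.025 within slide 2, and their median over both pairs was 0.12 with processed signals or the table. The cause was not tested.

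Leaving out a pool pair gave medians from -0.02 to 0.73 for clustered protocadherins, from -0.04 to 0.04 for other protocadherins and from -0.03 to 0.03 for classical cadherins. Of the 26 genes described with full values, 11 turned below 0 without pair 3, with ranges over the 2 pairs of -0.022 to 2.02 for pcdh2g28, -0.031 to 1.47 for pcdh1gb2, -0.035 to 0.83 for pcdh18b, -0.010 to 0.62 for pcdh19, -0.026 to 0.037 for pcdh10b, -0.012 to 0.55 for cdh2, -0.045 to 0.74 for cdh6, -0.013 to 0.029 for cdh10a, -0.16 to 0.95 for ctnna2, -0.0016 to 1.55 for ptk2bb and -0.024 to 0.79 for zeb2a. Cdh10a, at 0.0079 as reported, also turned to -0.027 with local backgrounds as deposited, -0.20 with processed signals or the deposited table, -0.013 with median centring, -0.016 without technical repeats and -0.080 within slide 1. Pcdh10b, at 0.0056, turned to -0.0074 without technical repeats, -0.0049 with arrays as independent or the slide as a block and -0.039 within slide 2. Signal over background limits the ratios of dim clustered genes, and the choice of probe moved several means.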
